A study of Mus musculus with 8 samples.

Results

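Pou5f1 encodes Oct4, the POU-domain transcription factor that, with Sox2 and Nanog, holds embryonic stem cells in the pluripotent state. It was the only member examined, 1 gene of 49997 listed for the mouse in RefSeq, and it was selected from the readout: a stretch just before its start site had been seen to hold many reads in both PHF20 libraries of this series. The PHF20 values over it are therefore given as a description, without a test. On the mm9 build the gene lies on the plus strand of chromosome 17 from 35642977 to 35647722, and the region described ran from 35638001 to 35650000.

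Chromatin immunoprecipitation followed by sequencing (ChIP-seq) enriches DNA fragments that are crosslinked to a protein, so that a bound site appears as a local excess of reads over control chromatin. The series holds 8 mouse libraries of C57BL/6 background, 2 each for PHF20, Wdr5, RNA polymerase II (Pol II) and a control. The sample labels name ES-derived neural progenitor cells as the cell type and embryonic stem cells as their origin, while the title and the culture medium speak of embryonic stem cells, and the growth protocol also names miPSCs, grown on irradiated feeder cells. Which state the cells were in bears on this gene, because Oct4 is transcribed in pluripotent cells and shut off in neural progenitors. It was not tested here: DNA libraries carry no marker transcripts, and reads at the promoters of other pluripotency genes were not counted. The labels do not say whether the control libraries were input DNA or a non-specific antibody, nor whether the cultures behind the libraries were separate. Any p-value therefore measures the scatter of these libraries alone, part or all of which may be technical.

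The members of the comparison play different parts at a promoter. PHF20 reads methylated lysines and belongs to the acetyltransferase complex built around MOF. Wdr5 is shared by the MLL/SET1 methyltransferases, which place methyl groups on lysine 4 of histone H3, a mark of active promoters. Pol II gathers at the start site and travels through the body of a gene while it is transcribed. The Oct4 gene is controlled by a promoter without a TATA box and by a proximal and a distal enhancer that lie upstream of it.

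The bases just before the start site are shown because the PHF20 reads stopped there. They come from RefSeq on the GRCm38.p6 build (chr17:35505782-35506031, plus strand), are written 5′ to 3′ and end at the last base before the first transcribed one. RefSeq lists 2 promoters for Pou5f1; the one shown is at the outer end of the gene, where the start site on mm9 was also set, and the other, which lies inside the gene, is not shown. The gene spans 4746 bp in the RefSeq gene table and on mm9. Capitals mark 1 GC box (GGGCGG), the motif of Sp1-family factors, and 1 copy of AGGTCA, the motif of nuclear receptors.

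Pou5f1 promoter: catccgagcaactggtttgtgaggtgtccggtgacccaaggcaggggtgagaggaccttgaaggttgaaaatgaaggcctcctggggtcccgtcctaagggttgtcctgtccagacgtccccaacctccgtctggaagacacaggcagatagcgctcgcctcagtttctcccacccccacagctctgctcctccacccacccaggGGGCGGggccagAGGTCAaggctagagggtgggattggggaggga

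Counted backwards from the start site, the GC box occupies bases 45 to 40 and AGGTCA bases 33 to 28. Searched on both strands, GGGCGG occurred in 32.7% and AGGTCA in 14% of 32851 RefSeq promoter windows of the same 250 bp length. TATAAA occurred in 12.4% of them and had 0 matches here. The motifs do not overlap each other, and a match describes letters only.

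Libraries held between 2909981 and 5474884 reads of 44 bp. Reads that shared a start were counted as 1, which left between 2260567 and 4600398 distinct starts on the autosomes and X, and CPM below scales such collapsed reads by library size in the usual way, unless every read is named. Control replicate 1 stood apart from the rest: over 254533 windows of 10 kb its counts had a Spearman correlation of at most 0.12 with any other library, against at least 0.60 between the other libraries. The fits against control and the ranking of similar windows are therefore given with and without it.

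PHF20 reads were dense over the 1931 bp from 35641001 to 35642931, which end 46 bp before the start site. PHF20 replicate 1 held 287 distinct starts there (95% exact Poisson interval 255 to 322) and PHF20 replicate 2 held 291 (259 to 326). Wdr5 replicates 1 and 2 held 3 and 2, Pol II replicates 1 and 2 held 6 and 4, and control replicates 1 and 2 held 2 and 3. Both PHF20 libraries were thus high and the other 6 were low, with no overlap, and these counts are what brought the gene to attention. The intervals here and below cover counting error only.

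In CPM the upstream stretch stood at 89.6 ± 12.8 in PHF20 ChIP, 1.93 ± 0.29 in Pol II ChIP, 0.88 ± 0.63 in control and 0.79 ± 0.03 in Wdr5 ChIP (mean ± SD, n = 2 each). The order below PHF20 was Pol II, control and Wdr5, and the last pair did not differ beyond its spread. The Pol II libraries, at 2.14 and 1.72 CPM, lay above both controls, at 0.43 and 1.33 CPM, but these values rest on 2 to 6 starts a library, and in the genome-wide test of Pol II against control given further on 0% of windows were called. With every read counted, the PHF20 libraries held 501 and 478 reads in the stretch, or 0.0123% and 0.0105% of their reads on the autosomes and X.

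Each library was also read against its own density in the 50 kb on each side of the region, which needs no control library. PHF20 replicate 1 stood at 64.6 times its surroundings over the upstream stretch (95% exact interval 54.1 to 77.2) and PHF20 replicate 2 at 59.8 times (50.3 to 71.1). The other libraries ran from 0.42 in Wdr5 replicate 2 to 1.52 in Pol II replicate 1, and all 6 of their intervals held 1. The widest of these reached 3.36, in Pol II replicate 1, so a modest excess of Pol II over the stretch was not detectable at this depth. The surroundings held 2.30 and 2.52 starts per kb in the PHF20 libraries and 1.76 to 2.54 in the others, not scaled for library size. Control replicate 1, the largest library with 4600398 distinct starts, held 2.12 per kb, so its surroundings were low for its size.

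**Figure D1:**
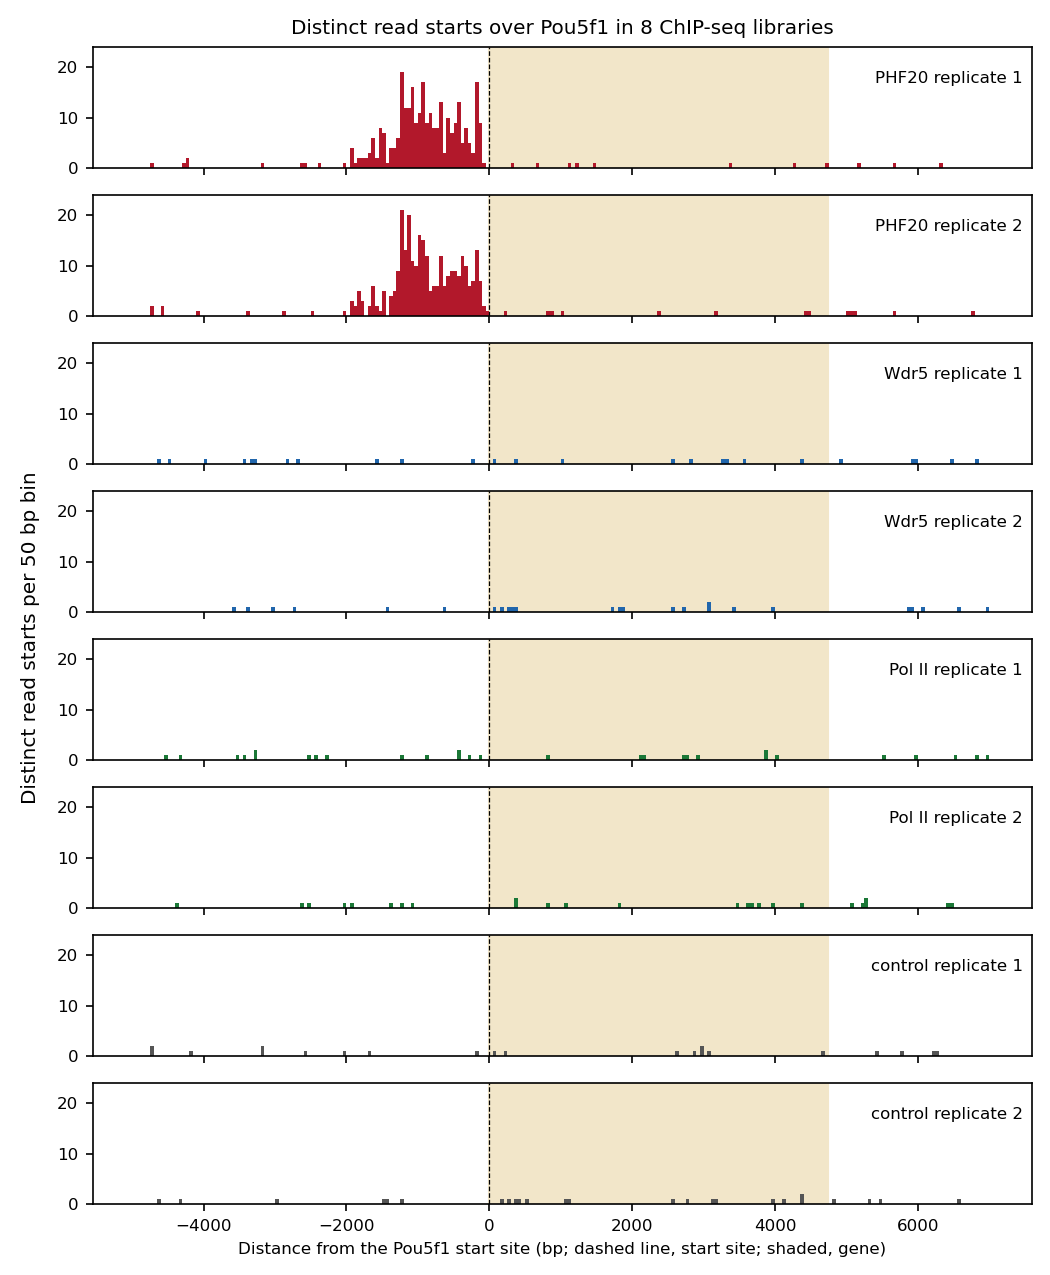
Distinct read starts per 50 bp bin (y axis, same scale in all 8 panels, reads placed by their midpoint) against the distance from the Pou5f1 start site in bp. The PHF20 libraries reach 19 and 21 starts per bin upstream of the start site and at most 1 per bin over the gene, and no bin of the other 6 libraries exceeds 2.

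Within the stretch the PHF20 reads fell into a thin part and a dense part. The limits of the dense part were drawn after the data were seen, from the outermost of the piled starts described next: it runs over 1297 bp from 35641635 to 35642931, that is, from 1342 to 46 bp before the start site. The dense part held 189 and 199 distinct starts per kb in PHF20 replicates 1 and 2. The thin part, the 634 bp before it, held 66.2 and 52.1 per kb, so that the density rose 2.85-fold and 3.82-fold from one to the other. Both parts lay far above the PHF20 surroundings, the thin part by 28.8 times (20.2 to 40.2) and 20.7 times (13.9 to 29.8). The other 6 libraries held 0 to 2 starts in the thin part and 1 to 6 in the dense part.

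The dense part was nearly without gaps. Reads from distinct starts covered 98.1% of its bases in PHF20 replicate 1 and 100% in PHF20 replicate 2, with a median depth of 8 in each and at most 23. All of its 25 full bins of 50 bp held a start in both libraries, with a median of 9 per bin. The highest bin lay 1250 to 1201 bp before the start site and held 19 and 21 starts. Over the 25 bins the counts of the PHF20 libraries correlated with a Pearson r of 0.69 and a Spearman rho of 0.65. This is given as a description only, since the bins share their sequence and how well reads can be placed in it.

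At 4 positions both PHF20 libraries held at least 10 reads with the same start while the other 6 libraries held none. The pile that begins 1342 bp before the start site had 39 and 27 reads in PHF20 replicates 1 and 2. Piles beginning 980 and 881 bp before it had 14 and 27 and then 24 and 44 reads. The pile nearest to the gene begins 89 bp before the start site, ends 46 bp before it, and had 20 and 19 reads. Together they carried 19.4% and 24.5% of all PHF20 reads in the stretch. Below that minimum of 10 reads, the start with the highest lower value had 5 and 3 reads, and no other start in the region had more than 6 and 5. The piles therefore stand apart from the rest of the positions, and they occurred at the same bases in both libraries.

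**Figure D2:**
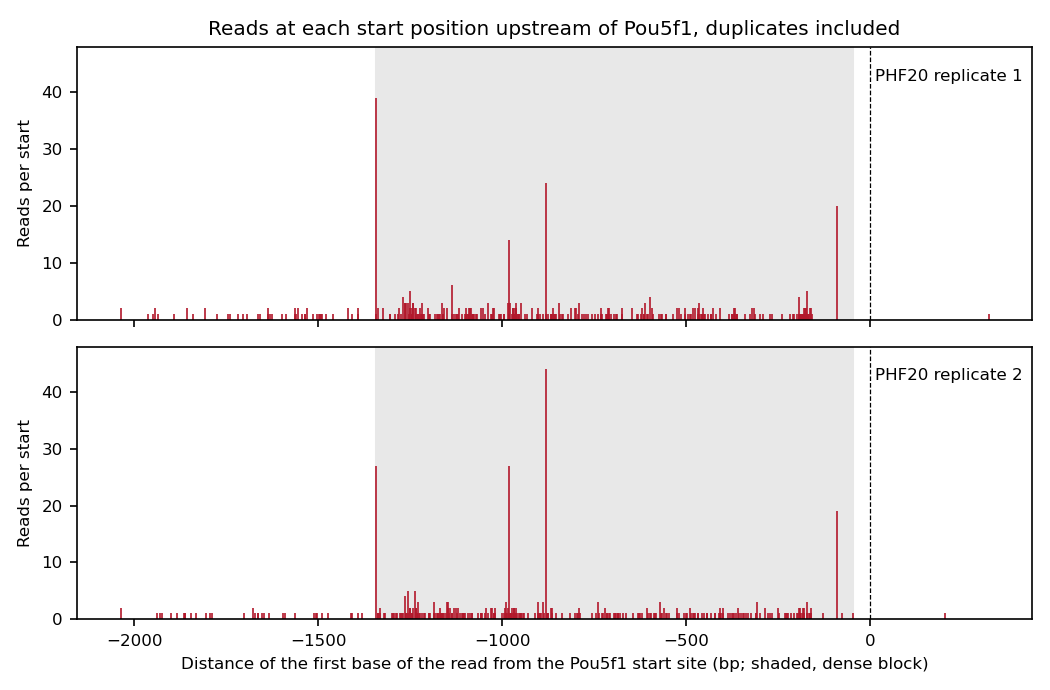
Reads per start position, duplicates included (y axis), against the distance of the read's first base from the Pou5f1 start site in bp (x axis) for the PHF20 libraries, with the dense part shaded. The 4 tall lines, at 14 to 44 reads, stand at the same positions in both libraries, and every other position holds at most 6 reads.

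Starts outside the piles were repeated about as often in the dense part as over the library. There were 1.46 and 1.29 reads per start in it, leaving out the piles, against 1.40 and 1.26 over all autosomes and X in PHF20 replicates 1 and 2. In the thin part the values were lower, at 1.21 and 1.03, and over the gene, on 8 starts in each library, they were 1 and 1. In the 3000 bp before the stretch, on 9 starts in each library, they were 1.22 and 1.22. Starts in the dense part were thus repeated more often than in these neighbouring segments, though the segments rest on few starts. The PHF20 libraries had 84 start positions of the dense part in common, 34.3% of those in replicate 1 and 32.6% of those in replicate 2. The 4 piles are among these shared positions. Some sharing arises by coincidence where 245 and 258 starts lie in 1297 bp, and how much was not calculated. Both libraries keep their excess when each start is counted only as 1.

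The reads changed over short distances at both ends of the dense part. In the last 100 bp of the dense part 20 and 13 distinct reads ended in PHF20 replicates 1 and 2, and in the next 100 bp 0 and 2 did. In the 300 bp after the end 0 and 1 reads began. Reads that crossed the end numbered 0 and 2. On the far side 5 and 4 starts lay in the 100 bp before the dense part and 21 and 25 in its first 100 bp, and 1 read crossed that edge in each library. The labels give library fragments of about 250 bp, and no fragment length was measured here. Because the files hold no strand, fragment ends could not be assigned.

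The place where the PHF20 reads stopped can be set beside the promoter sequence by its distance to the start site. The dense part, its limit set by the last pile, ended 46 bp before the start site on mm9. The GC box begins 45 bp before the start site in the RefSeq sequence. No coordinates were converted between the builds, so this comparison rests on the same one of the listed start sites being meant in both. In PHF20 replicate 2, 2 reads ran past that limit, and a link between the reads and the motif was not tested. None of the 8 libraries had a read that crossed the start site itself. Whether the reads came from bound chromatin at the Oct4 locus or from a separate piece of DNA with this sequence was not tested: the files hold no strand, read pairs or bases.

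**Figure D3:**
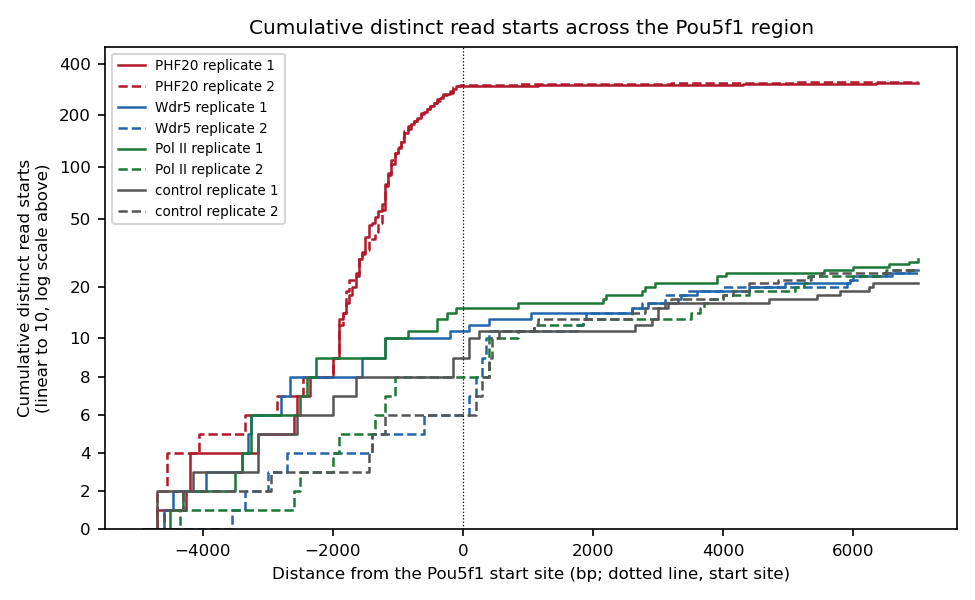
Distinct read starts summed from the left edge of the region (y axis, linear to 10 and logarithmic above) against the distance from the Pou5f1 start site in bp, 1 line per library. The PHF20 lines climb between about the start of the stretch and its end and are then flat, while the other 6 lines rise slowly over the whole region.

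Past the start site the PHF20 excess was gone. The gene held 8 distinct starts in each PHF20 library, or 2.48 ± 0.38 CPM (mean ± SD, n = 2). That was 0.73 times the surroundings (95% exact interval 0.31 to 1.47) in PHF20 replicate 1 and 0.67 times (0.29 to 1.34) in PHF20 replicate 2. The first 500 bp of the gene held 1 start in each. The density over the upstream stretch was 88.2 and 89.4 times that over the gene. On the far side, the 3000 bp before the stretch held 9 starts in each PHF20 library, at 1.30 (0.59 to 2.52) and 1.19 (0.54 to 2.30) times the surroundings.

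Wdr5 showed no excess over Pou5f1 that stood out from the controls. The gene held 9 and 14 starts in Wdr5 replicates 1 and 2, at 0.75 (0.34 to 1.44) and 1.21 (0.65 to 2.07) times their surroundings. The controls held 8 and 15, at 0.80 (0.34 to 1.595) and 1.67 (0.92 to 2.83) times. In the first 500 bp of the gene, where a subunit of the H3 lysine 4 methyltransferases would be looked for at an active promoter, Wdr5 replicate 2 held 5 starts, 4.10 times its surroundings (1.32 to 9.70). Control replicate 2 held 4 starts there, 4.23 times its surroundings (1.14 to 11.0). Wdr5 replicate 1 and control replicate 1 held 2 each. The level of the first 500 bp was thus high in the second library of both groups, in the control as much as in Wdr5 ChIP.

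Pol II reads over the gene were also at the level of the surroundings. Pol II replicates 1 and 2 held 9 and 11 starts over the gene, at 0.93 (0.42 to 1.79) and 1.32 (0.65 to 2.41) times the surroundings. In the first 500 bp they held 0 and 2, and the count of 0 allows up to 3.63 times the surroundings at 95% confidence. Downstream of the gene, towards its RefSeq neighbour Tcf19, they held 5 and 6 starts in 2278 bp, at 1.07 (0.34 to 2.54) and 1.497 (0.54 to 3.32) times. A polymerase level of up to about the upper ends of these intervals would not have been detectable here. Pol II in the surroundings themselves was not examined, so a level like theirs does not show that Pol II was absent from the gene.

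By group, the gene stood at 4.19 ± 3.46 CPM in control, 3.97 ± 1.08 in Pol II ChIP, 3.93 ± 2.10 in Wdr5 ChIP and 2.48 ± 0.38 in PHF20 ChIP (mean ± SD, n = 2 each). No neighbours in that order differed beyond their spread. The control libraries lay at the 2 extremes, with 1.74 CPM in replicate 1 and 6.64 in replicate 2, and all other libraries fell between them. Part of the gene's reads could be misplaced, since RefSeq lists 7 pseudogenes of Pou5f1, spread over 6 chromosomes. The treatment of reads with several matches is stated in none of the sources used here.

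**Figure D4:**
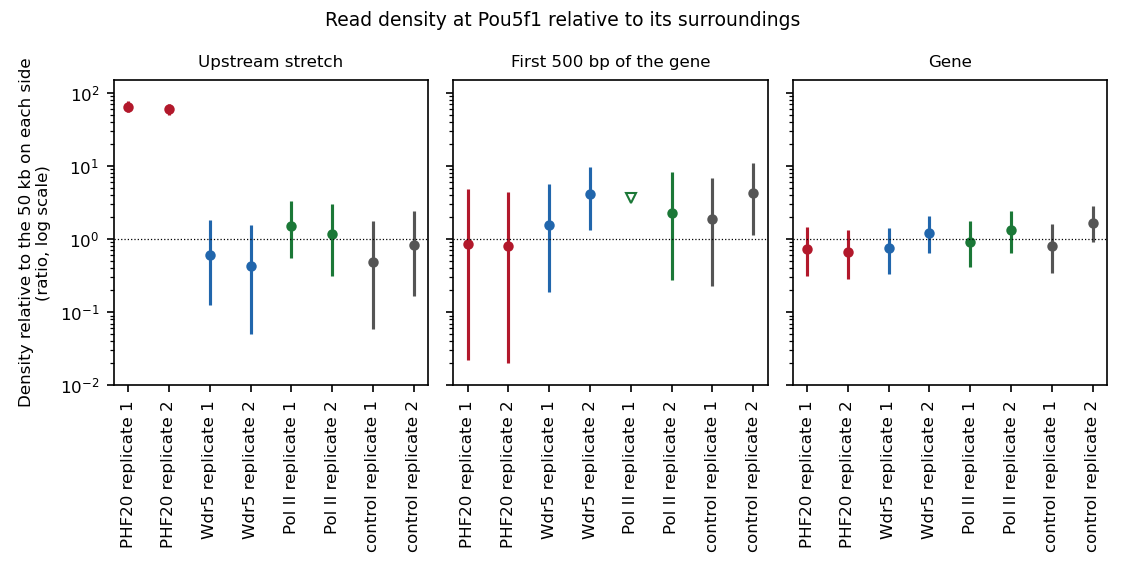
Density of distinct starts divided by that of the same library in the 50 kb on each side (y axis, log scale), with 95% exact intervals for counting error, for the upstream stretch, the first 500 bp of the gene and the whole gene. The open triangle is the upper limit for Pol II replicate 1, which held 0 starts. The PHF20 libraries over the upstream stretch, at 64.6 and 59.8, lie highest above the dotted line at 1. In the first 500 bp the intervals of Wdr5 replicate 2, at 4.10, and control replicate 2, at 4.23, also lie above it.

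Wdr5 and Pol II were compared with control in windows of 5 kb laid so that an edge fell on the start site. The gene was picked with the low counts of these libraries over the upstream stretch in view, so the window that holds the stretch is given as a size without a p, and the gene window, which lies outside it, is tested. The window before the start site (35637977 to 35642976) held 11 and 6 reads in Wdr5 ChIP, 15 and 8 in Pol II ChIP and 9 and 8 in control. The gene window (35642977 to 35647976) held 10 and 14, 9 and 11, and 8 and 16. The libraries of each ChIP group overlapped the controls in reads in both windows.

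Neither protein passed the threshold of 0.05 in the gene window (limma-trend, Benjamini-Hochberg adjusted p over 456390 windows). Wdr5 differed from control by -0.01 on the log2 scale before the start site, with a standard error of 0.50 (95% interval -0.98 to 0.96), and by 0.07 with a standard error of 0.50 over the gene (-0.92 to 1.06, adjusted p = 0.9986). Pol II differed by 0.58 before the start site, with a standard error of 0.50 (-0.39 to 1.56), and by 0.08 with a standard error of 0.50 over the gene (-0.90 to 1.07, adjusted p = 0.9914). Genome-wide the test called 0% of the windows for Wdr5 and 0% for Pol II, so that the 0 calls in the gene window match the background. At an unadjusted limma-trend p under 0.05 there were 21792 and 26341 of the 456390 windows. Both are near the share of 0.05 that such a cut-off passes when nothing differs. With voom weights 31 and 16 of 456390 passed the adjusted threshold. Over the gene the intervals leave room for a change of up to 1.06 for Wdr5 and 1.07 for Pol II on the log2 scale. Without control replicate 2, against control replicate 1 alone, they reach 2.03 and 2.04.

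These fold changes depended on which control was used, and both comparisons share the same controls. Leaving out control replicate 2 leaves only control replicate 1, the library that stood apart from the rest. Without control replicate 1 the gene window gave -0.77 for Wdr5 and -0.76 for Pol II, and without control replicate 2 it gave 0.93 and 0.94. None of these passed the threshold, with adjusted p of 0.9817, 0.9089, 0.6329 and 0.5766 in limma-trend, and leaving a single control assumes that it varies like the other groups. Before the start site, Wdr5 went from -0.35 to 0.34 and Pol II from 0.24 to 0.93 between the same settings. For PHF20 the same fit gave a log2 difference from control of 4.81 with a standard error of 0.50 before the start site and -0.46 with a standard error of 0.50 over the gene. Without control replicate 1 these were 4.45 and -1.30, and without control replicate 2 they were 5.17 and 0.39. They describe the size only.

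**Figure D5:**
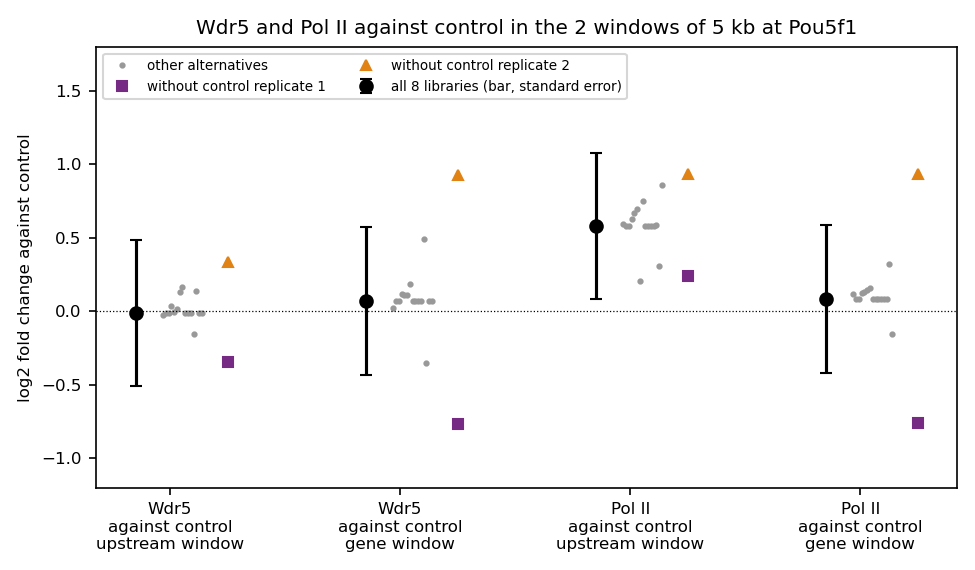
Log2 fold change against control (y axis) of Wdr5 and Pol II in the windows before and over Pou5f1, with all 8 libraries (black, bar for the standard error), without control replicate 1 (purple square), without control replicate 2 (orange triangle) and under the other alternatives (grey points). The gene windows move from -0.77 and -0.76 to 0.93 and 0.94 with the control that is left out.

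The window before Pou5f1 stood first in a ranking by the kind of PHF20 excess for which the gene was chosen. The windows were laid on its own start site, so stretches elsewhere could be split between windows. Likeness was measured over the 8 libraries as the level of the lower PHF20 library over that of the highest other library, with 0.3 CPM added to each. The ratio was 14.8 at Pou5f1, with 296 and 301 PHF20 reads in the window. The next window lay on chromosome 6 from 12592977 to 12597976 at a ratio of 2.20, with 8 and 11 PHF20 reads and 1 to 5 in the others. Those after it lay on chromosomes 6, 8, 4 and X, at 2.19, 2.04, 2.02 and 2.02. Without control replicate 1, a ranking added after the data were seen, Pou5f1 stayed first. Its ratio of 14.8 could not change, because the highest other library in its window was Pol II replicate 1, at 5.34 CPM. The 5 windows after Pou5f1 were then others, on chromosomes 9, X, 13, 12 and 3, at ratios of 2.70 to 3.26, with 0 of the earlier 5 among them. Control replicate 1 held 8 to 12 reads in each of these, against 6 to 13 in the PHF20 libraries. Ratios of this kind single out high values by construction, and no gene names are attached to these windows since an mm9 annotation was not used here.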

How the data were processed

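The deposited files list, for each library, the start and end of every aligned read, with no strand, name or score, per the file contents. CASAVA 1.6, FastQC and Bowtie 0.12.7 with the mm9 build are named per the submitters' processing notes; how the reads were mapped is not stated further. The gene, its limits and the tests were chosen with earlier results of these data known.

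Reads with the same start were counted as 1 and placed by their midpoint, 22 bp from the start. Ratios to the surroundings carry exact (Clopper-Pearson) 95% intervals. Counts in 5 kb windows whose mean was 3 reads or more were turned into log2 CPM with a prior count of 2 and fitted with limma-trend (limma 3.58.1, R 4.3.3), 1 mean per group. With 2 libraries against 2 an exact two-sided permutation test cannot go below p = 0.333, so single segments carry none. Named windows were the 5 most like Pou5f1 in the ratio of PHF20 to the other libraries. The promoter table is RefSeq on GRCm38.p6, and none of its coordinates were used with the reads. Promoters of other pluripotency genes had been planned and were not counted, for want of an mm9 annotation. Python 3.11.15 with numpy 2.4.6, scipy 1.17.1 and pandas 2.3.3 was used.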

Additional observations from a re-analysis of the deposited data

How the results depend on the processing

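The Pou5f1 gene window stayed without a call for Wdr5 and Pol II under all 17 alternatives of each comparison: every read counted, no low-count filter or a mean of at least 6 reads, trimmed-mean (TMM) size factors coded here, 10 kb windows, voom weights, a smaller prior count (0.5), reads placed by the first base, the replicate block and each library left out. Adjusted p (limma) ran from 0.5766 to 0.9998. Before the gene the log2 fold change ran from -0.35 to 0.34 for Wdr5 and from 0.20 to 0.93 for Pol II. In the main fit and with voom weights 456390 windows were tested, and with a mean of at least 6 reads 239845. With a library left out there were 411371 to 466868. Genome-wide counts of called windows moved from 0 to 31 for Wdr5 and 16 for Pol II with voom weights. They moved to 11 for Pol II with a mean of at least 6 reads. With each library left out they ran from 0 to 119 for Wdr5 and from 0 to 143 for Pol II, the highest without control replicate 2. Without Wdr5 replicate 1 there were 4 for Wdr5, and without control replicate 1 there were 17 for Pol II. Leaving out control replicate 2 leaves control replicate 1, the library that stood apart from the rest, as the only control. The cause of these moves was not tested.

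With every read counted, PHF20 over the stretch rose to 113.9 CPM and to 97.2 and 94.1 times the surroundings, since repeated starts are then kept. With surroundings of 10 kb PHF20 replicate 1 stood at 87.4 times. The other 93 of 96 ratios stayed within their intervals, and with 1 PHF20 library left out the level ran from 80.6 to 98.6 CPM.

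The labels tie a replicate number to no shared culture or batch, and whether one was shared is not known. Differences between replicates correlated at -0.21 to 0.31 between groups, so the numbers were not taken as pairs. With the replicate block the log2 fold changes were -0.01 and 0.07 for Wdr5 and 0.58 and 0.08 for Pol II before and over the gene, and the counts of calls stayed at 0.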
